A study of Mus musculus with 6 samples.

Results

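Fetal mouse intestinal cells with high Pdgfra were divided by how many transcripts of Bmp2 they held. Members were cells whose barcodes end in -3_1 or -3_2, here called set 3_1 and set 3_2, with at least 1000 detected genes, at most 5% mitochondrial transcripts and at least 2 unique molecular identifiers (UMIs) of Pdgfra. This gave 1090 cells in set 3_1 and 929 in set 3_2, together 2019 of the 13127 cells in the series. Cells with 2 or more Bmp2 UMIs are called Bmp2-positive (514 and 302 cells) and cells with 0 are called Bmp2-negative (369 and 386 cells). The 207 and 241 cells with 1 Bmp2 UMI lie between and entered neither class. The cells were chosen by their measured Pdgfra and Bmp2 counts, so the levels of both genes are given as a description.

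PDGFRA is a receptor for platelet-derived growth factors on mesenchymal cells. In the developing gut, mesenchymal cells with much of it gather beneath the epithelium at sites where villi form, respond to Hedgehog ligands from the epithelium, and make BMP ligands. BMP2 is a secreted ligand of the TGF-beta superfamily that acts through paired serine/threonine kinase receptors and Smad proteins. It is held in check by secreted antagonists such as noggin, chordin and follistatin, and Id genes are among the genes BMP signals turn on.

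All samples came from small intestine of C57/BL6 mice carrying Pdgfra-H2BGFP, an allele that puts a nuclear green fluorescent protein under control of Pdgfra, so no group lacks it. Embryos were pooled within an age: E13.5 had 4 replicates and 3 segments of 2.5 mm, E14.5 had 3 and 5, E15.5 had 2 and 10, E16.5 had 2 and 15, and E18.5 had 2 and 20. Cells of E15.5 with E16.5, and of E13.5 with E14.5 and E18.5, were each captured in 2 wells of live cells and 1 well enriched for CD31, CD45, Epcam or high green fluorescence, which gives 6 samples. No source used here ties a barcode ending to a sample, so both sets belong to 1 pooled matrix without replicates; age, segment and embryo cannot be told apart from Bmp2 class, no test was made, and every interval is a 95% interval for counting error only.

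Members had a median of 7075.5 UMIs in set 3_1 (range 1792 to 23052) and 3632 in set 3_2 (1591 to 10857), so values of set 3_2 are less precise. Positive and negative cells were of like depth, with medians of 7016 and 7384 UMIs in set 3_1 and 3686 and 3578 in set 3_2. Their median mitochondrial shares were 3.38% and 3.14%, and 3.00% and 2.98%. Sets 3_1 and 3_2 shared 1 cell barcode, and no 2 of the 6 barcode sets shared more than 3. Scrublet called 8 of the 1185 cells that passed the cell filter in set 3_1 and 21 of 2202 in set 3_2 as doublets, and these were kept.

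Bmp2 was spread widely among Pdgfra-high cells. In set 3_1 33.9% of members held no Bmp2 UMI, 18.99% held 1, 13.1% held 2, 8.53% held 3 and 25.5% held 4 or more, with a highest count of 19. In set 3_2 the corresponding shares were 41.6%, 25.9%, 15.8%, 8.18% and 8.50%, with a highest count of 12. The variance of the Bmp2 count was 3.21 times its mean in set 3_1 and 1.82 times in set 3_2. Counts around 1 common rate in cells of equal depth would give a ratio near 1. Depth differed between cells, which raises the ratio by itself, and the ratio was not adjusted for it. Bmp2-positive cells were 47.2% of members in set 3_1 (Clopper-Pearson interval 44.2 to 50.2) and 32.5% in set 3_2 (29.5 to 35.6). Over the deciles of total UMIs this share ran from 37.6% to 58.7% and from 23.7% to 41.3%.

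**Figure D1:**
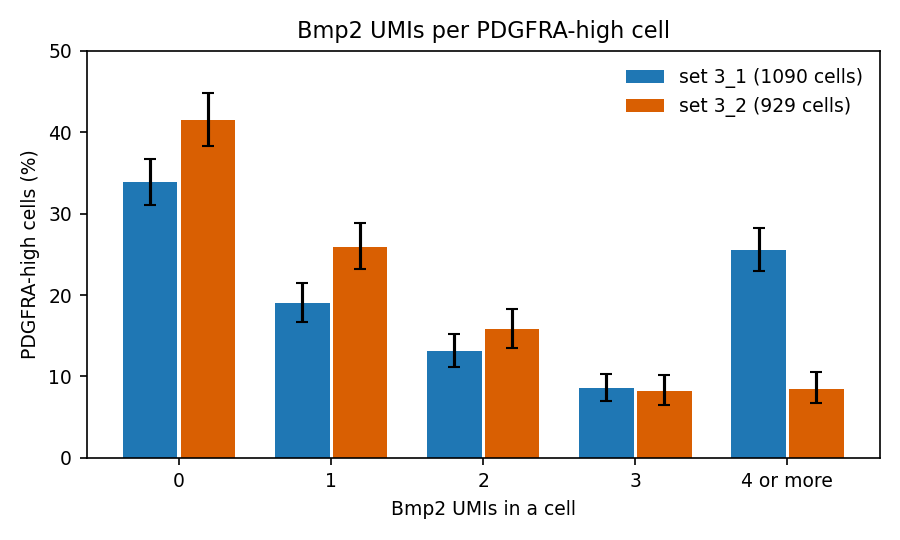
Share of Pdgfra-high cells (percent, vertical axis) by number of Bmp2 UMIs per cell (horizontal axis) in set 3_1 and set 3_2; bars start at 0 and error bars are 95% Clopper-Pearson intervals for counting error. Cells with 4 or more Bmp2 UMIs made up 25.5% of set 3_1 and 8.50% of set 3_2.

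Cells with 0 Pdgfra UMIs held Bmp2 UMIs as well, and whether these came from free RNA or from the cells themselves was not tested. In the other 4 barcode sets, cells with 0 Pdgfra UMIs had 2 or more Bmp2 UMIs in 2.94% to 3.75% of cells, at median depths of 4204 to 11368 UMIs. Within set 3_2, however, 21.2% of the 626 cells with 0 Pdgfra UMIs held 2 or more Bmp2 UMIs (18.1 to 24.7), against 14.3% of 28 such cells in set 3_1 (4.03 to 32.7). Just below and at the Pdgfra threshold the share with 2 or more Bmp2 UMIs was 26.9% of 67 cells with 1 Pdgfra UMI and 20.99% of 81 cells with 2 in set 3_1. In set 3_2 it was 23.3% of 647 cells with 1 and 27.5% of 465 cells with 2. Bmp2-positive cells also held more Pdgfra, with 1199 counts per 1e6 UMIs (CPM) against 904 in set 3_1 and 814 against 691 in set 3_2.

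Genes were then compared between the classes within deciles of total UMIs. The level in negative cells was weighted to the depths of the positive cells, and a log2 ratio above 0 means a higher level in Bmp2-positive cells. A gene was counted when the ratio reached 1.5-fold in the same direction in both sets, each counting interval lay on that side of 1, and the higher class had at least 20 CPM in each set. Of 6059 genes that could be compared, 37 were higher (0.611%) and 70 were lower (1.16%), and the median log2 ratio over all of them was -0.01 in both sets. In set 3_1 alone 198 genes were higher (3.27%) and 137 lower (2.26%), and in set 3_2 alone 179 (2.95%) and 247 (4.08%). The 37 genes are 18.7% of the higher genes of set 3_1 and 20.7% of those of set 3_2, and the 70 are 51.1% and 28.3% of the lower ones. When classes were also matched on tertiles of the Pdgfra count, 21 genes were higher and 27 lower. Both classes were also cut after thinning each cell to 2000 UMIs, with 1 or more remaining Bmp2 UMIs as positive and 0 as negative. Positive cells then went from 514 to 402 in set 3_1 and from 302 to 399 in set 3_2. Negative cells went from 369 to 686 and from 386 to 527. With these classes 4 genes were higher and 8 lower, of which 2 and 7 were among the 37 and 70. Adamts18 and Col14a1 still passed the rule. Gadd45a, Mtus1, Mical2, Fgf9, Wnt5a, Adamts9, Zeb2 and Tcf21, all described below, did not. This alternative changed both the depth and the threshold.

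**Figure D2:**
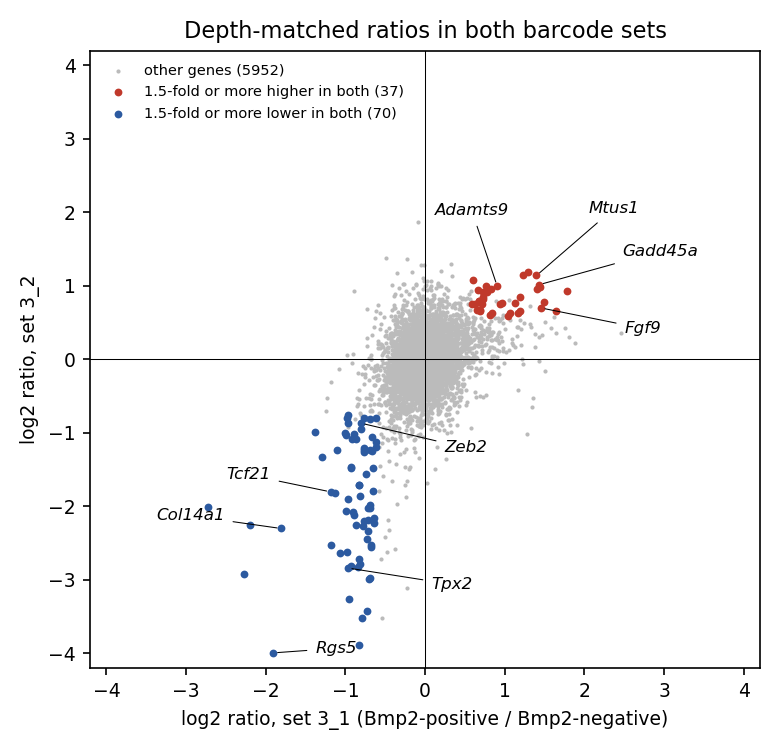
Log2 ratio of Bmp2-positive over Bmp2-negative cells for 6059 genes, set 3_1 on the horizontal axis and set 3_2 on the vertical axis; red points are the 37 genes at least 1.5-fold higher in both sets, blue points the 70 lower, grey points the rest. Ratios of the blue genes reach -3.996 for Rgs5 in set 3_2.

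Among genes outside the gene lists, Gadd45a, a stress-induced regulator of DNA repair and growth arrest, stood at 320 CPM in Bmp2-positive and 119 CPM in Bmp2-negative cells of set 3_1. In set 3_2 it stood at 257 against 127 CPM, so the log2 ratios were 1.43 (1.26 to 1.60) and 1.02 (0.75 to 1.29). It was higher in 10 of 10 deciles of set 3_1 and 7 of 10 in set 3_2. Mtus1, a microtubule-associated protein, was at 108 against 41.1 CPM and 109 against 49.4 CPM, with log2 ratios of 1.40 and 1.14. Mical2, an actin-oxidising enzyme, had log2 ratios of 1.40 and 0.96, and Col13a1, a transmembrane collagen, 0.72 and 0.83. Hgf, hepatocyte growth factor, was at 169 against 80.8 CPM and 143 against 92.8 CPM. Tubb2a, a beta-tubulin, had log2 ratios of 1.19 and 0.66, and Cd38, an enzyme that consumes NAD, 1.64 and 0.65, the latter higher in 5 of 10 deciles of set 3_2. Bdkrb2, a bradykinin receptor, Hs3st3b1, a heparan sulphate sulphotransferase, Wasf1, an actin regulator, and Abr and Tmem156 completed the 12 by rule, with log2 ratios between 0.61 and 0.81. Without the deepest decile of cells by total UMIs, an alternative chosen after seeing the data, Gadd45a, Mtus1, Mical2, Col13a1, Hs3st3b1 and Wasf1 still passed the rule and Tubb2a, Cd38, Hgf, Bdkrb2, Abr and Tmem156 did not. With matching on Pdgfra tertiles Gadd45a, Mtus1, Mical2, Tubb2a and Cd38 still passed, and Col13a1 and Hs3st3b1, at 0.53 and 0.42 in set 3_1, Wasf1, at 0.44 in set 3_2, Hgf, Bdkrb2, Abr and Tmem156 did not.

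**Figure D3:**
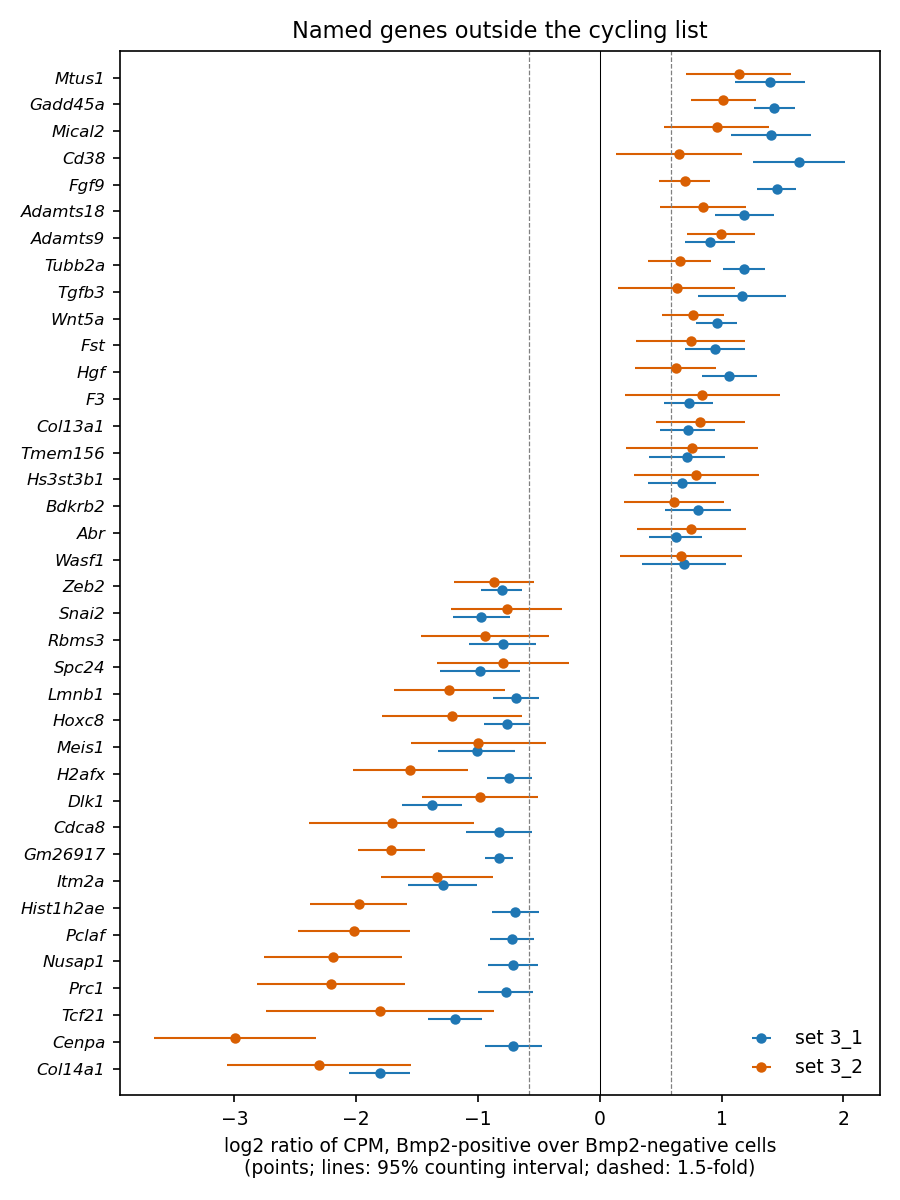
Log2 ratios of Bmp2-positive over Bmp2-negative cells for named genes in set 3_1 and set 3_2, with 95% counting intervals; the vertical line marks equal levels. Gadd45a and Mtus1 lie above 1 in both sets and Col14a1 below -1.

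Of the 5 other BMP ligands that could be compared, 0 reached 1.5-fold in both sets, beside 0.611% of all genes higher by the rule. All 5 had a higher value in both sets, where 27.6% of all genes did so. Bmp3, an atypical ligand that can oppose other BMPs, was at 522 against 233 CPM in set 3_1 and 535 against 396 CPM in set 3_2, with log2 ratios of 1.16 (1.04 to 1.28) and 0.43 (0.27 to 0.60). Bmp4, the close relative of Bmp2, was at 1060 against 814 CPM and 1462 against 1162 CPM. Bmp7 was at 132 against 70.5 CPM and 116 against 93.9 CPM, and the interval of its ratio in set 3_2 included equality (-0.05 to 0.65). Bmp5 had log2 ratios of 0.12 (-0.0032 to 0.25) and 0.55, and Bmp6 of 0.93 and 0.38 (-0.43 to 1.18), so 1 interval of each included equality as well. Summed over the list without Bmp2, ligand UMIs had a log2 ratio of 0.53 (0.47 to 0.58) in set 3_1 and 0.36 (0.28 to 0.44) in set 3_2.

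Of the secreted antagonists and modulators, 1 of 5 was counted as higher, beside 0.611% of all genes. Fst, follistatin, which binds activins and some BMPs, was at 130 against 67.4 CPM in set 3_1 and 86.5 against 51.5 CPM in set 3_2. Twsg1, which shapes the binding of chordin to BMPs, had log2 ratios of 0.61 and 0.28, and Smoc1 0.30 and 0.30. Below the level needed in both sets, Chrd, chordin, had log2 ratios of 1.18 and 0.52 and Nog, noggin, -1.51 and -1.13, the latter with an interval from -2.32 to 0.07. The pseudoreceptor gene Bambi went from -0.89 in set 3_1 to 0.23 in set 3_2.

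No receptor, Smad or target gene of the pathway passed the rule in either direction, where 0.611% of all genes were higher and 1.16% lower. At these shares a short list would mostly hold 0. Of 7 receptor and Smad genes 0 passed, and Bmpr1a, a type I receptor, was at 67.6 against 83.3 CPM and 73.2 against 95.2 CPM. Bmpr2, the type II receptor, had log2 ratios of -0.11 and 0.13. Of 5 target genes 0 passed. Id1 was at 427 against 417 CPM in set 3_1 and 382 against 372 CPM in set 3_2, and Id3 at 851 against 772 and 1024 against 983 CPM. Id2 was lower, at 344 against 456 CPM and 400 against 564 CPM, with log2 ratios of -0.41 (-0.52 to -0.30) and -0.50 (-0.66 to -0.33). Smad7, a feedback inhibitor, had -0.44 and -0.33, and Smad6 -0.09 and -0.48.

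Ligands of other pathways were among the higher genes. Fgf9, a fibroblast growth factor, was at 397 CPM in positive and 145 CPM in negative cells of set 3_1, and at 374 against 230 CPM in set 3_2, with log2 ratios of 1.45 (1.30 to 1.61) and 0.70 (0.49 to 0.91). Its share of cells with a UMI after thinning every cell to 2000 UMIs was 46.5% against 20.9% in set 3_1 and 43.3% against 39.6% in set 3_2 (unthinned 81.5% against 46.6% and 65.6% against 51.3%). Wnt5a, a ligand of non-canonical WNT signalling, was at 279 against 143 CPM and 264 against 155 CPM, whereas Wnt4 had log2 ratios of -0.45 and -0.23. Tgfb3, a TGF-beta ligand, was at 71.3 against 31.7 CPM and 71.5 against 46.1 CPM, and its co-receptor Tgfbr3 had log2 ratios of 0.93 and 0.52. Without the deepest decile the log2 ratios in set 3_2 were 0.55 for Fgf9 and 0.51 for Tgfb3, below 1.5-fold, and 0.82 for Wnt5a. With matching on Pdgfra tertiles as well, Fgf9 and Wnt5a still passed, whereas Tgfb3 and Fst had 0.20 and 0.53 in set 3_2 and did not. Counted genes were thus 1 of 6 in the FGF list, 1 of 2 WNT ligands and 1 of 8 in the TGF-beta list, beside 0.611% of all genes higher.

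Several other ligands differed by less than the threshold in at least 1 set. Nrg1, neuregulin 1, was at 725 against 531 CPM and 608 against 402 CPM, and the Notch ligand Dll1 had log2 ratios of 0.54 and 0.75 while the Notch target Hes1 had -0.36 and -0.55. Pdgfa, a ligand of PDGFRA, was at 62.3 against 35.0 CPM and 94.8 against 65.8 CPM. Sfrp2, a secreted WNT inhibitor, was at 101 against 18.4 CPM in set 3_1 but 40.7 against 31.9 CPM in set 3_2. Its relative Sfrp1 was slightly lower in both, with log2 ratios of -0.28 and -0.30.

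No Hedgehog gene was counted among the 8 compared, beside 0.611% of all genes higher and 1.16% lower. Ptch1, the receptor and a target of the pathway, was at 1221 against 904 CPM in set 3_1 and 1220 against 961 CPM in set 3_2, with log2 ratios of 0.43 (0.36 to 0.50) and 0.35 (0.24 to 0.45). Gli1, another target, was at 55.0 against 48.1 CPM and 74.0 against 72.8 CPM. Hhip, which sequesters Hedgehog ligands, had log2 ratios of -0.76 and -0.12, and the transcription factor genes Foxf1 and Foxl1 had 0.15 and 0.27, and 0.84 and 0.05. Gas1, a Hedgehog co-receptor, had -2.47 and -2.08 but was below 20 CPM in set 3_2.

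Of 19 genes known from Pdgfra-high mesenchyme, 2 were higher and 0 lower by the rule, beside 0.611% and 1.16% of all genes; the list draws on what sets such cells apart. Adamdec1, a metalloproteinase gene of gut mesenchyme, was abundant in both classes, at 10457 and 10773 CPM in set 3_1 and 4379 and 3879 CPM in set 3_2. Adamts18, a secreted metalloproteinase, was at 168 against 73.9 CPM and 134 against 74.4 CPM, with log2 ratios of 1.19 and 0.85. F3, tissue factor, was at 178 against 107 CPM and 42.4 against 23.6 CPM, and with matching on Pdgfra tertiles its log2 ratio in set 3_1 was 0.50, below 1.5-fold. Elovl7 and Has2 had log2 ratios of 1.64 and 1.51 in set 3_1 but 0.36 and 0.51 in set 3_2. Ednrb, an endothelin receptor, was at 2220 against 1563 CPM and 1898 against 1635 CPM, and Nkx2-3, a homeobox gene of gut mesenchyme, was lower at 402 against 537 CPM and 358 against 473 CPM.

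In the lists that follow, counts stand beside 0.611% of all genes higher and 1.16% lower. The matrix list had 0 of 23 counted, with Col12a1 the highest at log2 ratios of 1.19 and 0.53, and Col3a1 at -0.49 and -0.29. Among 6 metalloproteinases and inhibitors, Adamts9 was counted, at 191 against 102 CPM in set 3_1 and 230 against 115 CPM in set 3_2. Contractility genes had 0 of 16 counted; Myh9, a non-muscle myosin, had 0.34 and 0.49 and Acta2, smooth muscle actin, -0.47 and -1.11. Immediate early genes, which respond to tissue handling, had 0 of 12 counted, although Fosb had -0.33 in set 3_1 and 0.97 in set 3_2.

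Transcription factors of the mesenchyme were lower in Bmp2-positive cells in 4 of 15 cases, beside 1.16% of all genes, and higher in 0. Zeb2, a zinc-finger repressor, was at 128 CPM in positive and 223 CPM in negative cells of set 3_1 and at 96.4 against 176 CPM in set 3_2, with log2 ratios of -0.81 (-0.97 to -0.64) and -0.87 (-1.20 to -0.54). Tcf21, a bHLH factor of fibroblast precursors, was at 65.3 against 148 CPM and 9.98 against 34.9 CPM. Meis1, a homeobox cofactor, had log2 ratios of -1.01 and -0.998 and Snai2, a zinc-finger repressor, -0.97 and -0.76. Without the deepest decile of cells Zeb2 and Tcf21 still passed the rule, and Meis1 and Snai2 did not, with values of -0.45 and -0.31 in set 3_2.

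Of 2 genes of other fibroblasts 1 was lower by the rule, and of 14 Hox and regional genes 1, where 1.16% of all genes were. Of those 14, 6 were lower and 3 higher in both sets by any amount, beside 31.4% and 27.6% of all genes. Col14a1, a fibril-associated collagen, was at 42.6 against 149 CPM in set 3_1 and 14.1 against 69.8 CPM in set 3_2, with log2 ratios of -1.81 (-2.06 to -1.56) and -2.30 (-3.06 to -1.55). Col6a5, a collagen gene of the same fibroblast list, went the other way, at 108 against 60.3 CPM in set 3_1. Its log2 ratios were 0.84 (0.57 to 1.12) and 0.59 (-0.31 to 1.48), and it was below 20 CPM in set 3_2. Hoxc8, a homeobox gene, had -0.76 and -1.21. Dlk1, an imprinted gene of growing mesenchyme, had log2 ratios of -1.38 and -0.98 and was 1 of 9 imprinted genes lower by the rule. Ptn, pleiotrophin, named after its values were seen, was at 13.6 against 89.9 CPM and 11.6 against 46.8 CPM, yet was lower in 5 of 10 deciles of set 3_1. Rbms3, an RNA-binding protein, was lower in 10 of 10 deciles of set 3_1 and 9 of 10 of set 3_2, with log2 ratios of -0.80 and -0.95. Itm2a, a membrane protein, had -1.29 and -1.33, in 5 of 10 deciles of each set. Gm26917, a long non-coding RNA, had log2 ratios of -0.83 and -1.71. It was lower in 5 of 10 deciles of set 3_1 and 7 of 10 of set 3_2. After thinning, 42.0% of positive and 40.4% of negative cells in set 3_1 held a Gm26917 UMI. In set 3_2 these shares were 17.7% and 17.4%, so the thinned share was not lower in positive cells of either set. Unthinned shares were 82.7% against 85.6% and 27.8% against 30.1%. Without the deepest decile Col14a1, Hoxc8, Rbms3 and Gm26917 still passed, whereas Ptn, Dlk1 and Itm2a did not, with -0.38 for Dlk1 and -0.57 for Itm2a in set 3_2.

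Genes of the cell cycle were the largest group among the lower genes. Of 19 cycling genes compared, 12 were lower by the rule and 0 higher, beside 1.16% and 0.611% of all genes, and 19 of 19 had a lower level in both sets, where 31.4% of all genes did so, with median log2 ratios of -0.68 and -2.16. Top2a, the topoisomerase of chromosome condensation, was at 248 against 386 CPM in set 3_1 and 78.2 against 349 CPM in set 3_2. Ccnb2, a mitotic cyclin, was at 21.7 against 42.6 CPM and 9.15 against 56.6 CPM, and Cenpf, a kinetochore protein, at 77.9 against 129 CPM and 33.3 against 181 CPM. Outside that list, Cdca8, Spc24, Prc1, Nusap1, Cenpa, Pclaf, Lmnb1, H2afx and Hist1h2ae, which serve chromosome segregation, replication and chromatin, were 9 of the 12 lower genes named by rule, with log2 ratios between -0.69 and -2.99. Mki67 or Top2a was found after thinning to 2000 UMIs in 18.0% of positive and 25.5% of negative cells in set 3_1 and in 8.33% and 11.4% in set 3_2 (unthinned 40.5% and 45.0%, and 11.9% and 15.54%).

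Much of this difference lay in the deepest cells in both sets, and more so in set 3_2. Summed over 21 cycling genes the level was 1196 against 1888 CPM in set 3_1 and 477 against 1690 CPM in set 3_2, which are log2 ratios of -0.66 and -1.82. In the deepest decile it was 4057 against 6914 CPM and 988 against 6583 CPM. Over the other 9 deciles the log2 ratio was -0.52 (-0.60 to -0.44) in set 3_1 and -0.27 (-0.47 to -0.06) in set 3_2. In set 3_2, 8 of 386 negative cells had at least 1% of their UMIs from these genes, all 8 lay in the deepest decile, and they held 36.9% of the cycling UMIs of that class; 1 of 302 positive cells did so. Of the 12 lower cycling genes, 0 still passed the rule without the deepest decile, 0 without the 5% deepest members and 4 with matching on Pdgfra tertiles (Ccna2, Ccnb1, Ccnb2 and Tpx2). Without the deepest decile Top2a, Ccnb2 and Cenpf had log2 ratios of 0.20, 0.079 and 1.14 in set 3_2. Over all genes, 20 were then higher and 15 lower, of which 17 and 8 were among the 37 and 70. Among cells without any cycling UMI, 18 genes were higher and 8 lower, of which 4 and 3 were among those.

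**Figure D4:**
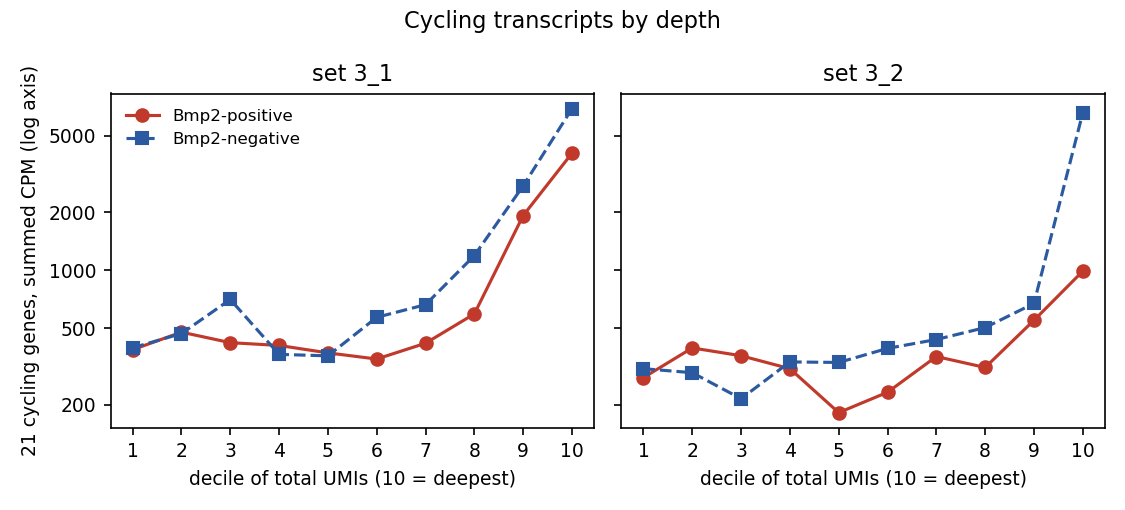
Summed level of 21 cycling genes (CPM, log axis) by decile of total UMIs per cell, for Bmp2-positive and Bmp2-negative cells of set 3_1 and set 3_2. In the deepest decile of set 3_2 the level was 988 CPM in positive and 6583 CPM in negative cells.

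The promoters of 2 of these lower cycling genes are shown because the group was lower together and both hold 2 motifs known from cell cycle promoters. Each covers 250 bases before to 50 after the gene's start, from RefSeq on GRCm38.p6, written along the gene's strand. Capitals mark CCAAT (or ATTGG on the other strand) and TTTGAA (or TTCAAA), the CCAAT box and the cell cycle homology region. Ccnb2 lies at chr9:70421505-70421804 on the minus strand and Cenpf at chr1:189688037-189688336 on the minus strand.
Ccnb2: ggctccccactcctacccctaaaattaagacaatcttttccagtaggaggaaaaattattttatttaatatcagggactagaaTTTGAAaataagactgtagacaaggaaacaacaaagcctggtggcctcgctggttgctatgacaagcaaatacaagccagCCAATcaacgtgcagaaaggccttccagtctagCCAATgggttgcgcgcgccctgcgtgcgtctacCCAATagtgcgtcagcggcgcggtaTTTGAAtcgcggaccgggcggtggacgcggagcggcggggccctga
Cenpf: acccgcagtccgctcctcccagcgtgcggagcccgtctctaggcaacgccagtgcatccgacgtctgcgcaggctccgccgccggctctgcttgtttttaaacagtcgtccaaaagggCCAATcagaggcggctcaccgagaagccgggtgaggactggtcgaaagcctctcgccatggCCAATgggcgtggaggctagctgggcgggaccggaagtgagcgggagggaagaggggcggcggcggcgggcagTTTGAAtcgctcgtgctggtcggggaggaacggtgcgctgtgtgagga
Of the 12 lower cycling genes 10 had an entry. CCAAT was found in 8 of 10, against 37.9% of the promoters of 27025 gene symbols, TTTGAA in 5 of 10 against 18.1%, and both in 5 of 10 against 7.12%. Both strands were searched, and a match may share bases with another. A match describes letters in the window and is not evidence of binding. These genes come from a list of cycling genes, whose promoters are known for such motifs, so a high share was likely beforehand. Cycling genes that were not lower by the rule were not searched, so the shares say nothing about Bmp2 class.

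Over the number of Bmp2 UMIs, 11 of the 37 higher and 19 of the 70 lower genes were ordered over 4 classes in both sets, and the others were not. These genes had been chosen by comparing 0 with 2 or more Bmp2 UMIs in the same cells. Part of the order was therefore fixed by the choice, and the share of all genes so ordered was not computed. The levels are given as a description. In cells with 0, 1, 2 or 3, and 4 or more Bmp2 UMIs, with each class weighted to the UMI deciles of all members, Gadd45a stood at 122, 139, 256 and 372 CPM in set 3_1 and at 125, 177, 230 and 280 CPM in set 3_2. Fgf9 stood at 143, 197, 347 and 418 CPM and at 234, 290, 369 and 394 CPM. Zeb2 followed the reverse order, from 227 through 174 and 145 to 119 CPM and from 169 through 120 and 106 to 80.5 CPM. Wnt5a was ordered in set 3_1 but not in set 3_2, where cells with 2 or 3 UMIs had 273 CPM and cells with 4 or more had 257 CPM.

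**Figure D5:**
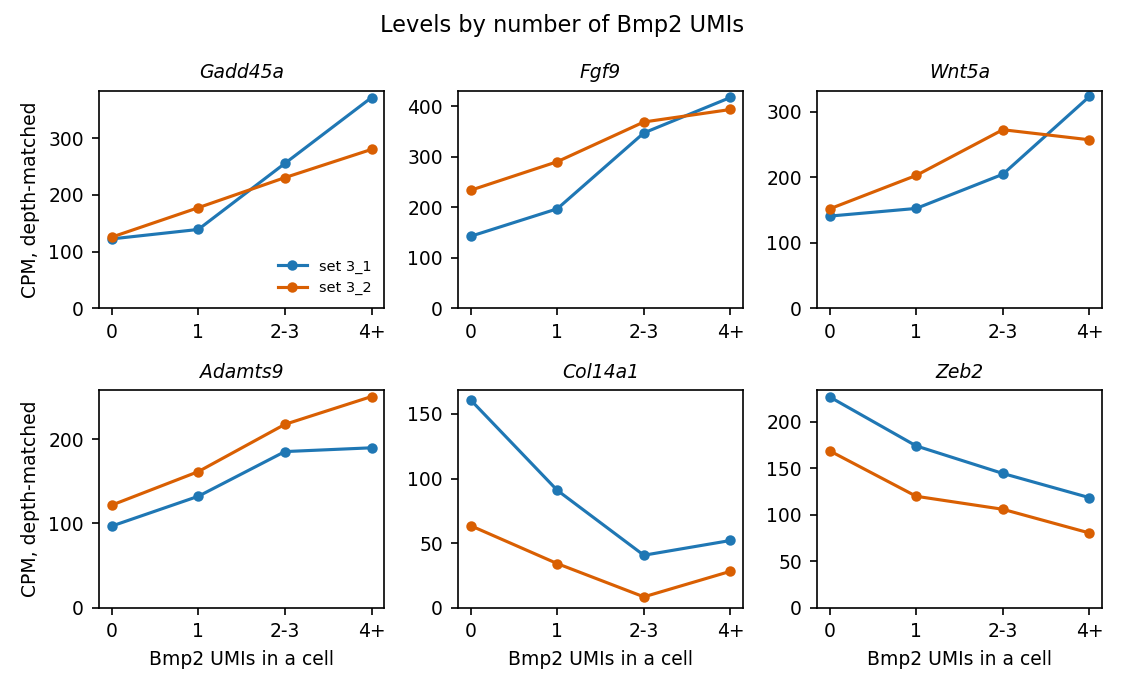
Level (CPM, vertical axis) of 6 genes in cells with 0, 1, 2 or 3, and 4 or more Bmp2 UMIs in set 3_1 and set 3_2, each weighted to the UMI deciles of all members. All 6 were chosen among genes that differed between 0 and 2 or more Bmp2 UMIs in these cells. Gadd45a goes from 122 to 372 CPM in set 3_1 and from 125 to 280 CPM in set 3_2, and Zeb2 goes down from 227 to 119 CPM and from 169 to 80.5 CPM.

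The same classes were formed in the 4 other barcode sets, whose cells took no part in choosing the genes. There, 54 of 1268, 47 of 938, 30 of 231 and 59 of 275 cells with 2 or more Pdgfra UMIs were Bmp2-positive in sets 1_1, 2_1, 1_2 and 2_2. The 37 higher genes had a higher level in 32 of 36, 32 of 36, 30 of 36 and 35 of 37 genes with a value, where 50.3%, 49.1%, 48.1% and 49.4% of all genes compared were higher. Of the 37, 23 were higher in all 4 sets, beside 12.4% of all genes. The 70 lower genes had a lower level in 50 of 70, 44 of 70, 55 of 65 and 57 of 63, where 49.7%, 50.9%, 51.9% and 50.6% of all genes were lower. Of the 70, 26 were lower in all 4 sets, beside 13.3% of all genes. With the sets of each ending pooled, Adamts18 had log2 ratios of 4.12 and 1.33, Fgf9 5.29 and 0.99 and Zeb2 -1.30 and -1.59, but Wnt5a 0.12 and 0.30 with intervals that included equality. Without depth matching, Pdgfra was at 746 CPM in positive and 256 CPM in negative cells of set 1_1 and 477 against 210 CPM in set 2_1. In set 1_2 it was at 758 against 557 CPM, and in set 2_2 at 653 against 620 CPM. The same values were 1199 against 818 CPM in set 3_1 and 814 against 720 CPM in set 3_2. Classes of sets 1_1 and 2_1 thus differed more in Pdgfra than those of sets 3_1 and 3_2. Classes of sets 1_1 and 2_1 differed in depth too. Medians were 8066.5 UMIs in positive and 13649 in negative cells of set 1_1, and 10375 and 15530 in set 2_1. In sets 1_2 and 2_2 the medians were closer, at 3713 and 4046 UMIs and at 3812 and 3704 UMIs. For the pooled sets of each ending, the cycling sum had log2 ratios of 0.01 and -0.87.

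Markers of other cells were summed list by list. The 16 epithelial markers summed to 2807 against 2782 CPM in set 3_1 and 173 against 198 CPM in set 3_2, and 9 endothelial markers to 96.5 against 97.7 and 78.2 against 81.2 CPM. Blood markers were higher in positive cells of set 3_1, at 178 against 115 CPM, and haemoglobin and other erythroid markers in set 3_2, at 4961 against 3525 CPM. Pericyte markers summed to 293 against 296 CPM and 198 against 212 CPM, of which Pdgfrb held 116 against 122 CPM and 85.6 against 81.2 CPM. The pericyte gene Rgs5 was among the lower genes, but did not pass the rule without the deepest decile. Deciles in which Rgs5 was lower were 6 of 10 in set 3_1 and 5 of 10 in set 3_2. It was at 10.1 against 37.7 CPM in set 3_1 and 2.49 against 39.8 CPM in set 3_2, where positive cells held 3 UMIs of it and the log2 ratio ran from -5.69 to -2.30. Smooth muscle markers summed to 762 against 904 CPM and 483 against 495 CPM, and enteric neuron markers to 8.07 against 7.12 CPM and 5.82 against 4.02 CPM. Enteric glia markers summed to 11.3 against 12.2 CPM in set 3_1, and in set 3_2 to 13.3 against 2.27 CPM from 16 and 4 UMIs, a log2 ratio of 2.55 (0.92 to 4.19). Xist, expressed from the inactive X of female cells, was at 513 against 428 CPM and 3292 against 3143 CPM. The part of these markers in the gene counts was not tested.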

How the data were processed

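Single-cell RNA was measured in 6 samples of mouse small intestine. The authors deposited 1 matrix of raw UMI counts per gene and cell, with 24568 genes and 13127 cells. Cell Ranger 2.1.1, Seurat and build mm10 are named per the submitters' processing notes, without their role. For the annotation and any earlier cell filter: not given in the sources used here. No sample columns were left unused (0). Both endings appear to rest on different gene lists, which no label states, so genes were compared only with counts in both sets.

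UMIs were summed over cells in python 3.11.15 with numpy 2.4.6, scipy 1.17.1 and pandas 2.3.3. In each set the observed UMIs of Bmp2-positive cells were divided by those expected from negative cells of the same decile of total UMIs. Intervals (95%) are on the log scale and, like the exact Clopper-Pearson intervals of shares, cover counting error only. No count model was fitted, since a pooled matrix has no replicates. The ratio step was tested on simulated data. Doublets were called with Scrublet in scanpy 1.11.5 at an expected rate of 0.05 and kept, with removal as an alternative. Thinning drew 2000 UMIs per cell, and left out 2 positive cells per set.

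Members and gene lists were chosen with earlier results of these data known. Beyond the lists, the text names the 12 higher and 12 lower genes with at least 50 CPM and the largest smaller ratio of both sets. Within lists, counted members and the highest and lowest members could be named, and some of these are left out. BMP ligands, receptors and targets and Hedgehog genes were open to naming in any case. Other members named for their role, and Ptn, were chosen after their values were seen. Alternatives changed the Bmp2 and Pdgfra thresholds, the depth matching, the cell filter, the CPM minimum, the fold, doublets, cycling cells and sex-specific transcripts. Promoters came from RefSeq, GRCm38.p6.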

Additional observations from a re-analysis of the deposited data

Results flagged for a closer look

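Armcx6, Arsj and Tagln passed 1.5-fold in opposite directions in the 2 barcode sets, with each counting interval on its own side of equality. Armcx6 had a log2 ratio of Bmp2-positive over Bmp2-negative cells of -0.73 in set 3_1 and 0.69 in set 3_2. Arsj, a sulphatase gene, had 1.28 in set 3_1 (37.6 against 15.4 CPM) and -1.02 in set 3_2 (19.1 against 38.8 CPM). Tagln, a smooth muscle actin-binding protein, had -0.90 (68.3 against 127 CPM) and 0.92 (54.9 against 28.9 CPM), and was lower in 10 of 10 deciles of set 3_1. The difference between the sets was not tested for any of them.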

How the results depend on the processing

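No paired analysis was possible because no cell can be tied to a sample, and lane numbers therefore pair nothing. Of 5171 values of named genes and lists, 4134 stayed within the main counting interval, 1000 moved and 37 reversed. Reversal was counted only among 1776 values of genes that passed the main rule, of which 1739 kept their direction. Sign changes of other genes and of lists were counted as moved or within the interval. The 22 settings include those of the CPM minimum and the fold, which gave only counts of genes. Against 37 higher and 70 lower genes, 14 were higher with 1 or more Bmp2 UMIs as positive. Classes cut after thinning, also with 1 or more Bmp2 UMIs as positive, gave 4 and 8. At least 4 Pdgfra UMIs gave 13 and 39, with shares of Bmp2-positive cells of 50.8% and 41.4%; at least 1 gave a share of 28.7% in set 3_2. A mean of per-cell CPM gave 45 lower, leaving out the 5% deepest members 19 lower, and no CPM minimum 117 lower. A minimum of 100 CPM gave 10 and 14, a 2-fold rule 4 and 11, cells with no cycling UMI 18 and 8, matching on Pdgfra 21 and 27, and leaving out the deepest decile 20 and 15. The last, and leaving out members with blood or haemoglobin UMIs, are alternatives chosen after seeing the data; the latter left 0 cells in set 3_2, and the Y-gene alternative too few there, so neither gave gene counts.

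These log2 ratios of genes that passed the main rule reversed. With at least 4 Pdgfra UMIs, set 3_2: Gm26917 0.10, Tgfb3 -0.061, Snai2 0.039. With no cycling UMI, set 3_1: Gm26917 0.44, Spc24 0.23, Cenpa 0.65, and set 3_2: Itm2a 0.17, Spc24 0.49, Prc1 0.90, Lmnb1 0.27, Snai2 0.13. In cells with Y-gene and no Xist UMIs, set 3_1: Gm26917 0.017. In the other sets of the ending of 3_1: Rbms3 0.077, Prc1 0.26, H2afx 0.19, Nusap1 0.50, Top2a 0.25, Cenpf 0.26, Cenpe 0.046, Tpx2 0.063, Ube2c 0.20, Hmmr 0.18, and of 3_2: Lmnb1 0.055, Hoxc8 0.10, Mcm5 0.46. Without the deepest decile, set 3_2: Cdca8 0.54, Nusap1 0.55, Top2a 0.20, Ccnb2 0.079, Birc5 0.046, Cenpf 1.14, Tpx2 0.33, Ube2c 0.088. Without blood or haemoglobin UMIs, set 3_1: Top2a 0.10, Cenpe 0.33, Tpx2 0.052, Hmmr 0.29. The cause was not tested. Depth limits set 3_2, where genes near 20 CPM rest on few UMIs.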

Other observations

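Lists not described above held few or no genes past the rule, where 0.611% of all genes were higher and 1.16% lower. Of 10 axon guidance genes 0 passed; Robo2, a receptor for Slit ligands, had log2 ratios of 0.70 and 0.34 in sets 3_1 and 3_2, and Nrp2, a semaphorin receptor, -1.23 and -0.53. Of 5 retinoic acid genes 0 passed, with Aldh1a3 at -0.63 and -0.09 and Aldh1a2 at 0.30 and 0.23, both of which make retinoic acid. Cyclin D genes and cycle inhibitors had 0 of 5, with Ccnd2 at 791 against 782 CPM and 1138 against 1065 CPM. Stress and heat shock genes had 0 of 7, with Hspa1a at -0.50 and -0.59 and Ddit3 at 0.06 and -0.48.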
